A study of Gallus gallus with 14 samples.

Results

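NANOG (NM_001146142) was followed through 3 stages of early chicken development by strand-specific RNA-seq, from blastodermal cells of freshly laid eggs (BC) to male gonads at embryonic day 11 (E11G) and embryonic day 14 (E14G). It was taken as the single transcript with this identifier among 42501 transcripts of the deposited expression table, together with its rank among the expressed transcripts of each library. NANOG was chosen by its FPKM values at these stages, so its own levels and ranks are described here without a test. All 6 libraries, 2 per stage, came from untreated embryos of the JA57 broiler breed. BC libraries were made from pooled whole blastoderms and gonad libraries from pooled left-side gonads, so that germ cells and somatic cells were sequenced together. In such whole-tissue RNA, fewer cells of a type and less RNA per cell cannot be told apart. Cultured E7 primordial germ cells, the fourth stage of the study, have small RNA lists but no column in the expression table used here.

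NANOG is a homeodomain transcription factor that, with a POU-family partner (POU5F3 in chicken, related to mammalian POU5F1) and SOX proteins, maintains the pluripotent state of early embryonic cells. In birds it is made in the blastoderm and is retained in primordial germ cells after somatic lineages have switched it off. In the male gonad, germ cells lose pluripotency factors as they become prospermatogonia and then spermatogonia.

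Levels were given in FPKM, that is fragments per kilobase of transcript relative to library size, which the authors scaled across the libraries. On this scale the transcripts of 1 library can be compared per length, but the number of reads behind a value is unknown. Libraries of one stage agreed across the 22368 transcripts that reached 1 FPKM in at least 1 library, with Pearson correlations on log2(FPKM + 1) of 0.987 in BC, 0.973 in E11G and 0.963 in E14G, given as descriptions across transcripts. Housekeeping genes gave summed levels of 12526 and 13336 FPKM in BC and between 10279 and 10813 FPKM in the 4 gonad libraries. By limma (adjusted p under 0.05), 6 of 9 were higher in BC than in E11G and 0 were lower. Of all transcripts 40.4% were called higher and 38.0% lower. The median difference of these 9 genes was 0.57 on the log2 scale, beside 0.03 for all transcripts.

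The first E11G library, labelled as male gonads, held transcripts that go against this label. Of 19 transcripts on the assembled W chromosome, which only female birds carry, that reached 1 FPKM in both BC libraries, 11 reached 1 FPKM in this library and 1 did so in each of the other 3 gonad libraries. CYP19A1, the aromatase that makes oestrogen in the developing ovary, was at 116 FPKM in the first E11G library and at 0.0137, 0.0165 and 0.0188 FPKM in the second E11G library and the 2 E14G libraries. NANOG differences and the counts that rest on E11G are therefore also given without the first E11G library. NANOG itself differed little between the 2 E11G libraries.

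NANOG was abundant in blastodermal cells, intermediate in E11 gonads and low in E14 gonads. It stood at 899 FPKM in the first and 1001 FPKM in the second BC library. In E11G it stood at 28.7 and 29.2 FPKM, and in E14G at 3.24 and 4.33 FPKM. The ranges of the 3 stages did not overlap, and each step was far wider than the gap between libraries of one stage. Stage means were 949.8 ± 72.5 FPKM in BC, 29.0 ± 0.326 FPKM in E11G and 3.78 ± 0.774 FPKM in E14G (SD, n = 2 each). The mean in BC was 32.8-fold that in E11G, with single library pairs between 30.8-fold and 34.8-fold. It was 251-fold that in E14G, with pairs between 207-fold and 309-fold, and the mean in E11G was 7.66-fold that in E14G, with pairs between 6.64-fold and 9.02-fold. On the log2(FPKM + 1) scale, which understates changes of low transcripts, BC exceeded E11G by 4.99 and E14G by 7.64, and E14G minus E11G was -2.66. Without the first E11G library the difference between BC and E11G was 4.97, and E14G minus E11G was -2.67.

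The rank of NANOG within each library, which needs no scaling between libraries, gave the same order. In BC it ranked 104 of 16588 and 101 of 16699 transcripts with at least 1 FPKM, which placed it in the top 0.627% and top 0.605%. In E11G it ranked 2942 of 18581 and 2764 of 18594, the top 15.8% and 14.9%. In E14G it ranked 12883 of 18228 and 11721 of 18280, at 70.7% and 64.1% from the top. The median expressed transcript had between 7.43 and 9.09 FPKM in the 6 libraries, so NANOG lay above the median in E11G and below it in E14G. Among RefSeq transcripts alone, NANOG ranked 65 in both BC libraries, 1675 and 1581 in E11G, and 4590 and 4445 in E14G.

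**Figure D1:**
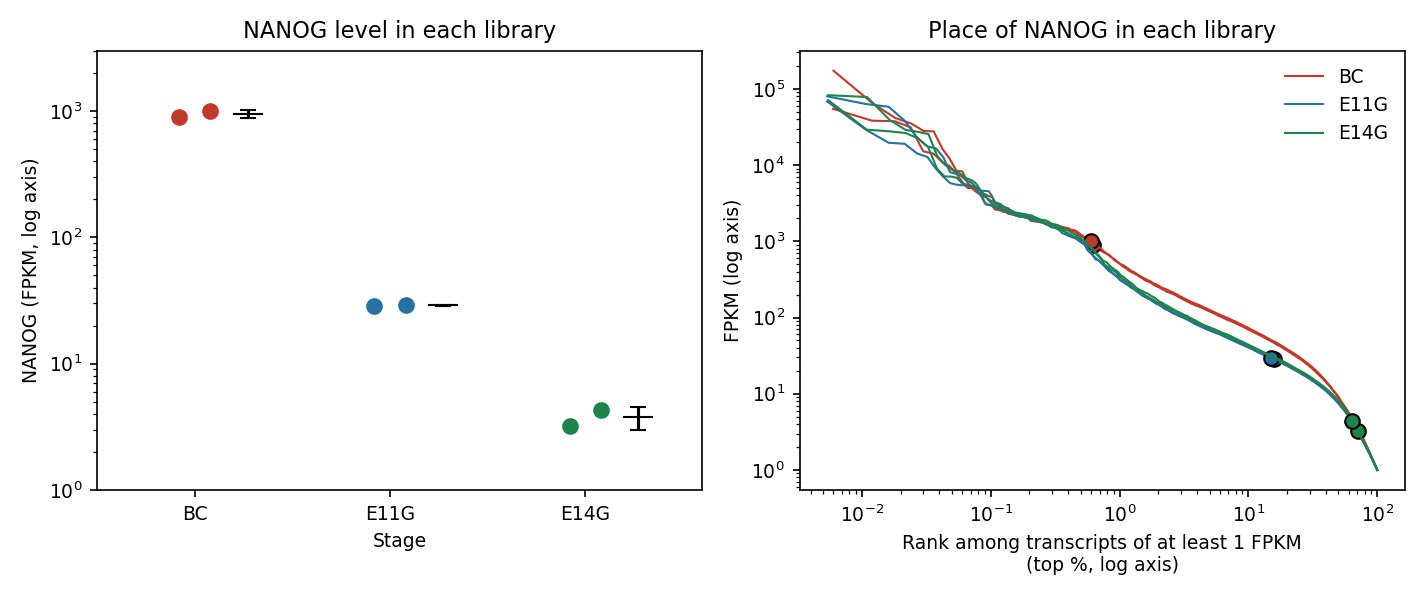
Left, NANOG in FPKM (log axis) in each of 2 libraries per stage, with the stage mean and SD as bars beside the points; right, FPKM against rank (top percent, both log axes) for all transcripts of at least 1 FPKM, 1 line per library, with NANOG as circles. The BC libraries sit at 899 and 1001 FPKM at the top 0.627% and 0.605% of the ranking, E11G at 28.7 and 29.2 FPKM at 15.8% and 14.9%, and E14G at 3.24 and 4.33 FPKM past the middle of the ranking.

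Among all transcripts, NANOG stood near the front of the ordering in both steps, which describes the values it was chosen by. Ordered by BC minus E11G on log2(FPKM + 1), NANOG was at place 57 of 22368 transcripts, and at place 17 of the 5249 with a gene symbol. By BC minus E14G it was at place 5, and the only named genes ahead of it were EOMES, a T-box factor of the primitive streak (8.34), and ASTL, an astacin-like protease (7.80). By E11G minus E14G it was at place 21, behind 4 named transcripts, the microRNA genes MIR6559 and MIR3528, CYP19A1 and LOC422926. Of these 4, MIR3528, CYP19A1 and LOC422926 were mainly carried by the first E11G library, with 117, 116 and 124 FPKM there against 0, 0.0137 and 14.6 FPKM in the second. On the log2(FPKM + 1) scale no other transcript had both steps at least as large as those of NANOG. By FPKM ratio this did not hold. Both ratios were larger for ERNI, with stage means of 82.8 FPKM in BC, 0.299 FPKM in E11G and 0.0371 FPKM in E14G. On the log2(FPKM + 1) scale, which leaves out low transcripts whose FPKM ratio alone is as large, a BC step of at least 4-fold above E11G was found in 1364 transcripts and an E11G step of at least 4-fold above E14G in 81. On that scale 3 transcripts, NANOG and the unnamed ENSGALT00000026745.5 and ENSGALT00000067307.1, passed both. ENSGALT00000026745.5 was at 140 and 145 FPKM in BC, 19.8 and 8.59 FPKM in E11G and 0.797 and 3.82 FPKM in E14G, and in ENSGALT00000067307.1 the E11G signal came from the first library alone (18.6 against 0 FPKM). Without the first E11G library NANOG was at place 63 of 22136 transcripts by BC minus E11G and at place 33 by E11G minus E14G, behind 14 named transcripts, of which 13 were microRNA genes and the other was LOC422926. On the same log2(FPKM + 1) scale no other transcript then had both steps as large as those of NANOG either. The 4-fold steps were found in 1495 and 82 transcripts. Both were passed by 3, NANOG, LOC422926 and ENSGALT00000079850.1, so that NANOG was the only transcript to pass both with and without that library.

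To see whether other genes of the pluripotent state followed the same course, 25 pluripotency genes were looked up, of which 14 could be matched to a transcript. Across the table, limma called 78.3% of the 22368 transcripts different between BC and E11G (adjusted p under 0.05), 40.4% as higher in BC and 38.0% as lower. Against this background, 13 of 14 pluripotency genes were higher in BC, 0 were lower and 1, the Krüppel-like factor KLF2, was not called. Their median difference was 3.86 on the log2 scale, beside 0.03 for all transcripts tested. Without the first E11G library 12 of 14 were higher in BC and 0 lower. TBX3 was the member lost, and its small difference of 0.25 turned to -0.056 when libraries were rescaled by the median ratio. That rescaling moved the median of all transcripts from 0.03 to -0.26, and the share of calls that were higher in BC from 51.5% to 41.9%.

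POU5F3, the POU-domain partner of NANOG, was the only pluripotency gene above it in BC. It stood at 1140.5 and 1189.85 FPKM in BC, 74.5 and 78.9 FPKM in E11G, and 33.7 and 31.1 FPKM in E14G. The stages did not overlap, and BC minus E11G was 3.91 (SE 0.0744, adjusted p = 6.2e-06). DNMT3B, a de novo DNA methyltransferase of early embryos, stood at 518 and 545 FPKM in BC, 34.7 and 38.8 FPKM in E11G, and 11.04 and 11.4 FPKM in E14G. SALL4, a zinc finger factor of stem cells, stood at 428 and 441 FPKM in BC, and at 7.50 and 7.18 FPKM in E11G and 4.66 and 4.46 FPKM in E14G, so most of its difference lay between BC and E11G. SOX3, a SOX factor of the early epiblast, stood at 227 and 236 FPKM in BC, 8.97 and 10.8 FPKM in E11G, and 2.51 and 2.87 FPKM in E14G. Its relative SOX2, the usual partner in mammals, was far lower, at 3.09 and 4.26 FPKM in BC. SOX2 stood at 0.563 and 0.384 FPKM in E11G and at 0.0475 and 0.155 FPKM in E14G.

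Other members were high in BC and low in both gonad stages. LIN28A, an RNA-binding protein that blocks let-7 microRNAs, was at 87.0 and 96.0 FPKM in BC. It stood at 0.536 and 0.484 FPKM in E11G and at 0.103 and 0.188 FPKM in E14G. Its gonad difference was not called (limma, adjusted p = 0.0953), but with a pseudocount of 0.1 it was called lower in E14G (adjusted p = 0.0463). OTX2, a homeodomain factor of the epiblast, was at 55.2 and 58.3 FPKM in BC. It stood at 0.692 and 1.01 FPKM in E11G and at 0.0711 and 0.236 FPKM in E14G, a difference not called (limma, adjusted p = 0.0606). The cell adhesion gene EPCAM was at 698 and 757 FPKM in BC and between 3.13 and 5.53 FPKM in the gonads. MYC, a growth-promoting factor, was at 252 and 270 FPKM in BC and between 3.62 and 4.18 FPKM in the gonads, with overlapping ranges in E11G and E14G. LIN28B was at 82.4 and 86.5 FPKM in BC and between 5.004 and 8.13 FPKM in the gonads. The smallest called differences in this list were those of CDH1, an epithelial cadherin, at 1.17, ETV5, an ETS factor, at 0.91, and TBX3.

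Between E14G and E11G, where 3.84% of all transcripts were called, 2.32% as lower in E14G and 1.52% as higher, 4 of 14 pluripotency genes fell, 1 rose and 9 were not called. DNMT3B fell by 1.63 (adjusted p = 0.0115), SOX3 fell by 1.56 (adjusted p = 0.0149), POU5F3 fell by 1.22 (adjusted p = 0.0149) and SALL4 fell by 0.59 (adjusted p = 0.024), all on the log2(FPKM + 1) scale. TBX3 rose by 0.70 (adjusted p = 0.028), but this call and that of SALL4 were lost whichever library was left out. The median difference of the list was -0.35, beside 0.01 for all transcripts. These calls rest on few libraries. Without either BC library, which enter only the shared estimate of spread, 1 transcript in all was called higher in E14G and 1 lower, and 0 pluripotency genes were called. Without the first E11G library 44 transcripts were called lower and 9 higher, among them DNMT3B and SOX3. Without the second E11G or the first E14G library 3 pluripotency genes fell (DNMT3B, SOX3 and POU5F3), and without the second E14G library DNMT3B alone. Between BC and E14G, a comparison that shares its BC libraries with the one against E11G, 76.7% of transcripts were called, 39.4% as higher in BC and 37.3% as lower. There 12 of 14 pluripotency genes were higher in BC and TBX3 was lower, with a median of 5.29 beside 0.02 for all transcripts.

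**Figure D2:**
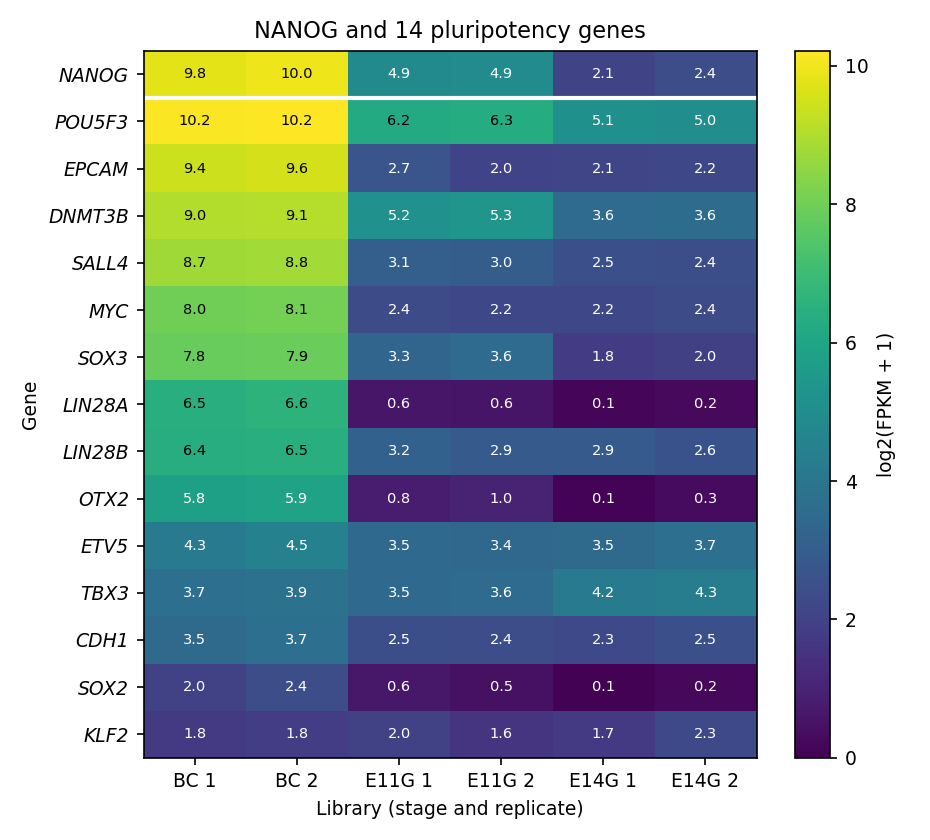
Heat map of log2(FPKM + 1) for NANOG (top) and the 14 matched pluripotency genes, ordered by their mean level in BC, in the 6 libraries. NANOG is second to POU5F3 in BC and lower at each later stage, whereas EPCAM, MYC and LIN28B have near levels in E11G and E14G, and KLF2 and TBX3 have their highest values in E14G.

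NANOG was also set against other pluripotency genes library by library. It was 0.788 and 0.841 times POU5F3 in BC, 0.386 and 0.370 times in E11G, and 0.0960 and 0.139 times in E14G. Relative to DNMT3B it was 1.73 and 1.84 in BC, 0.828 and 0.754 in E11G, and 0.293 and 0.381 in E14G. Both ratios were highest in BC and lowest in E14G, and the stages did not overlap. Relative to SALL4 the order differed, since NANOG was 2.10 and 2.27 times SALL4 in BC, 3.83 and 4.07 times in E11G, and 0.694 and 0.971 times in E14G. Relative to SOX3 it was 3.96 and 4.24 in BC, 3.21 and 2.69 in E11G, and 1.29 and 1.51 in E14G.

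The gonads hold few germ cells among many somatic cells, so the same was done with germ cell genes. Of 25 germ cell genes looked up, 10 were matched. In BC against E11G, where 40.4% of all transcripts were higher and 38.0% lower, 1 was higher, 8 were lower and 1, the fucosyltransferase FUT4, was not called, with a median of -1.46 beside 0.03 for all transcripts. With the first E11G library left out, 7 were lower. DDX4, the chicken vasa homologue and a general germ cell marker, stood at 5.27 and 5.68 FPKM in BC, 22.6 and 17.6 FPKM in E11G, and 26.2 and 22.7 FPKM in E14G. DAZL, an RNA-binding protein of germ cells, stood at 9.98 and 11.6 FPKM in BC, 62.7 and 58.3 FPKM in E11G, and 56.2 and 48.7 FPKM in E14G. Both were lower in BC than in the gonads, the opposite of NANOG. The exception was CXCR4, a chemokine receptor used by migrating primordial germ cells and by other embryonic cells, at 102 and 114 FPKM in BC and between 4.73 and 8.57 FPKM in the gonads.

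Between E11G and E14G the NANOG mean differed 7.66-fold. Of the 10 germ cell genes 9 were not called, in a comparison where only 3.84% of all transcripts were called. The median difference of the list was -0.21, beside 0.01 for all transcripts. E14G minus E11G was 0.28 for DDX4 (adjusted p = 0.314) and -0.21 for DAZL (adjusted p = 0.328). PIWIL1, a PIWI protein that binds piRNAs, was at 21.8 and 13.5 FPKM in E11G and 28.0 and 26.6 FPKM in E14G (0.64, adjusted p = 0.164). The difference was 0.25 for ASZ1, but -0.48 for CXCR4, -0.42 for KIT, -0.37 for THY1, -0.22 for ITGA6 and -0.16 for FUT4. KIT (adjusted p = 0.0756) was called lower in E14G only after median-ratio rescaling. NANOG was 1.27 and 1.66 times DDX4 in E11G and 0.123 and 0.191 times in E14G, and 0.458 and 0.501 times DAZL in E11G and 0.0576 and 0.0889 times in E14G. The lowest E11G ratio was above the highest E14G ratio for both genes. These ratios contain the NANOG levels by which it was chosen, so they are a description without a test. The 1 germ cell gene called was GFRA1, the GDNF receptor of spermatogonial stem cells in mammals, which fell by 1.41 (adjusted p = 0.0149) from 38.8 and 39.0 FPKM to 14.9 and 13.2 FPKM. That call was lost without the first E11G library, without either BC library and without the second E14G library.

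**Figure D3:**
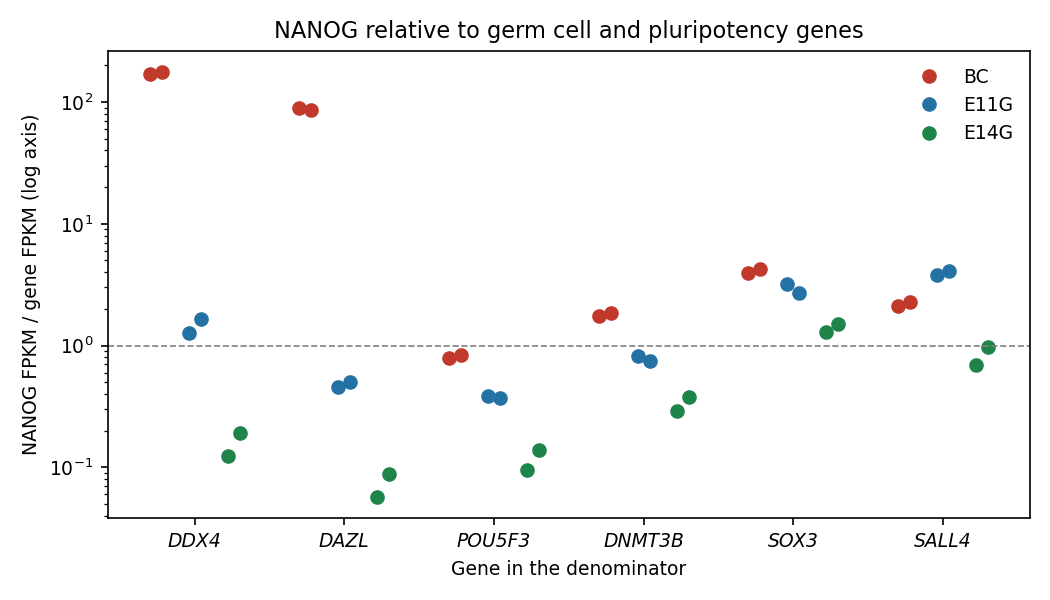
NANOG FPKM divided by the FPKM of each of 6 genes (log axis) in the 6 libraries, 2 points per stage, with the dashed line at equal levels. The ratio to DDX4 goes from 170 and 176 in BC to 1.27 and 1.66 in E11G and to 0.123 and 0.191 in E14G, and SALL4 is the only gene shown against which the ratio is highest in E11G.

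Markers of the somatic cells of the gonad were summed in each library. The summed level of 9 matched Sertoli cell genes was between 62.6 and 68.6 FPKM in BC, between 4132 and 5013 FPKM in E11G and between 3290 and 3408 FPKM in E14G (in each library INHA was listed at 0). AMH, the hormone that regresses the Müllerian ducts, made up most of the gonad sums, at 3797 and 4696 FPKM in E11G and 3056 and 2906 FPKM in E14G. The median E14G minus E11G difference of the 8 Sertoli genes tested was 0.38, beside 0.01 for all transcripts. INHBB had the largest, 1.04 (limma, adjusted p = 0.0569), from 20.8 and 21.7 FPKM in E11G to 36.3 and 55.3 FPKM in E14G. Without the first E14G library its difference was 1.34. AMH (-0.50) and WT1 (-0.29) went the other way. The 6 matched steroid synthesis genes summed to between 9.47 and 10.7 FPKM in BC, 481 and 339 FPKM in E11G, and 511 and 497 FPKM in E14G. The 8 blood genes summed to between 8.16 and 8.45 FPKM in BC, 1767 and 1943 FPKM in E11G, and 2276 and 2722 FPKM in E14G. The 10 germ cell genes summed to 156 and 174 FPKM in BC, 245 and 215 FPKM in E11G, and 209 and 190 FPKM in E14G. CXCR4 made up most of the BC sums, and without it the other 9 summed to 53.8 and 59.6 FPKM in BC, 236 and 208 FPKM in E11G, and 204 and 185 FPKM in E14G. Between E14G and E11G 0 of 8 Sertoli genes and 0 of 6 steroid synthesis genes tested were called, and 2 of 7 blood genes, the globins HBE and HBZ, were lower in E14G, beside 2.32% of all transcripts. Without the first E11G library, either BC library or the second E14G library 0 blood genes were called, and without the second E11G library HBZ alone. The Sertoli, steroid synthesis and blood sums were thus higher in the gonads, where NANOG was lower than in BC, and their part in its levels was not tested.

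NANOG works downstream of extracellular signals, so their ligands, receptors and effectors were examined next. Of 21 transcripts tested from the Nodal, FGF, BMP, Wnt and LIF pathways, 12 were higher in BC than in E11G, 7 were lower and 2 were not called, with a median of 0.51 beside 0.03 for all transcripts. Of all transcripts 40.4% were higher and 38.0% lower, so calls in both directions were common across the table. These counts were 12 and 6 without the first E11G library. After median-ratio rescaling of all 6 libraries, GDF3, BMPR1A and FGFR3 were no longer called higher in BC. FGF2 was then called lower in BC (limma, adjusted p = 0.0296). NODAL, TDGF1, ACVR1B, SMAD4 and WNT8C could not be matched to a transcript, so the Nodal ligand itself was not tested. WNT3A entered as 2 transcripts, both called higher in BC. The ligands tested were mostly on the higher side. FGF8 was at 28.5 and 29.0 FPKM in BC, 0.415 and 0.501 FPKM in E11G, and listed at 0 in E14G. BMP4 was at 65.7 and 69.1 FPKM in BC and between 4.38 and 6.18 FPKM in the gonads. WNT8A was at 48.0 and 44.4 FPKM in BC and between 0.0237 and 0.245 FPKM in the gonads. These 3 ligands thus shared the high BC level of NANOG.

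Receptors were divided between the 2 directions. ACVR2B, an activin and Nodal receptor, was at 31.3 and 34.1 FPKM in BC and between 4.09 and 4.50 FPKM in the gonads. CFC1, a cofactor of Nodal signalling, was at 175 and 194 FPKM in BC and between 51.8 and 79.3 FPKM in the gonads. On the lower side, LIFR, the receptor for leukaemia inhibitory factor, was at 3.003 and 3.70 FPKM in BC and between 55.7 and 64.7 FPKM in the gonads. FGFR1, the fibroblast growth factor receptor, was at 11.9 and 12.4 FPKM in BC and between 59.4 and 74.9 FPKM in the gonads. Among effectors, SMAD3 was lower in BC (7.21 and 6.81 FPKM, against 45.3 to 55.7 FPKM in the gonads), and STAT3, which acts below LIFR, was not called between BC and E11G. From E11G to E14G 2 of 21 fell, FGF8 (adjusted p = 0.048) and FGFR2 (adjusted p = 0.0282), and 0 rose. Of all transcripts 2.32% were called lower in E14G and 1.52% higher. Neither the FGF8 nor the FGFR2 call held when any library was left out.

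Genes of the lineages that leave the epiblast were also high in BC. Of 12 tested genes of the primitive streak and hypoblast, 11 were higher in BC than in E11G and 1, GATA4, which is also a gonadal somatic factor, was lower. Of all transcripts 40.4% were higher and 38.0% lower. The median was 2.11 beside 0.03, and the counts were the same without the first E11G library. The HNF4A call was weak (0.89, limma, adjusted p = 0.0243). It was lost with a pseudocount of 0.1, without a filter on low values and after median-ratio rescaling. EOMES was at 454 and 485 FPKM in BC, 2.24 and 2.27 FPKM in E11G, and 0.516 and 0.398 FPKM in E14G. CDX2, a caudal-type homeobox factor, was at 56.6 and 42.6 FPKM in BC and listed at 0 in all 4 gonad libraries, whereas TBXT, the brachyury factor of the streak, was only at 4.26 and 2.88 FPKM in BC. From E11G to E14G 2 of the 12 genes fell and 0 rose, beside 2.32% of all transcripts called lower in E14G and 1.52% higher. EOMES fell by 1.16 and GATA5, a factor of endoderm and heart, fell by 1.05 (adjusted p = 0.0149 for both). Both calls were lost without the first E11G library, without either BC library or without the second E14G library.

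The named genes whose levels in the 6 libraries lay closest to those of NANOG, by Euclidean distance on log2(FPKM + 1) over 5248 transcripts, were HSPB9, a small heat shock protein (distance 2.23), and DNMT3B (2.32). They were followed by SALL4 (3.09), SLC2A14 (3.21), the kinase SGK1 (3.48), the transcriptional cofactor CITED2 (3.55), SOX3 (3.58), the metallothionein MT3 (3.60), EPCAM (3.66) and FABP3, a fatty acid binding protein (4.10). Since they were chosen for their pattern, no test is given for it. HSPB9 matched NANOG in BC, at 777 and 934 FPKM, but was at 14.9 and 12.9 FPKM in E11G and 10.2 and 9.27 FPKM in E14G. HSPB9 thus differed less between E11G and E14G than NANOG did. MT3 was higher in E14G (15.4 and 13.1 FPKM) than in E11G (6.94 and 10.5 FPKM). When likeness was measured by Pearson correlation instead, 29 named transcripts exceeded 0.99 over these 6 libraries, and 2 of the closest 10, DNMT3B and FABP3, were shared by both measures.

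The chromosomal surroundings of NANOG were then examined. The table places NANOG on chromosome 1 of galGal5 at chr1:75915830-75918614, and 0 other transcripts of the table overlapped it. Within 150 kb on either side lay 17 transcripts, 11 of which reached 1 FPKM in a library. Of these, 2 were higher in BC than in E11G and 8 were lower, beside 40.4% and 38.0% of all transcripts (78.3% in either direction). Between E14G and E11G 0 were called, beside 3.84% of all transcripts. These counts were the same without the first E11G library. Both transcripts that were higher lay side by side before NANOG. SLC2A14, a facilitative glucose transporter of the class that RefSeq (GRCg7b) also lists as SLC2A3, lay 36.6 kb away at 520 and 561 FPKM in BC, 22.3 and 24.6 FPKM in E11G, and 19.6 and 18.8 FPKM in E14G. BC minus E11G was 4.47 for it (SE 0.0804, adjusted p = 5.8e-06), and E14G minus E11G was -0.27 (adjusted p = 0.128). The unnamed ENSGALT00000048576.1, which starts 0.95 kb past the end of SLC2A14 and is not tied to a gene in the table, was at 262 and 263 FPKM in BC and between 13.2 and 16.9 FPKM in the gonads.

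The pair thus shared the step from BC to E11G with NANOG, and neither was called from E11G to E14G. Other named genes lay further off. FKBP4, an immunophilin 179.7 kb before NANOG, differed by 0.37 between BC and E11G, a value that shrank to 0.03 and was no longer called under median-ratio rescaling. FOXM1, a cell cycle factor 252 kb before NANOG, differed by 0.85 (adjusted p = 0.00055). PHC1, a Polycomb protein 269.6 kb after NANOG, was at 14.4 and 16.6 FPKM in BC and between 11.6 and 13.5 FPKM in the gonads (0.28, adjusted p = 0.0587), and OVST, 427 kb after it, was under 0.1 FPKM in every library.

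**Figure D4:**
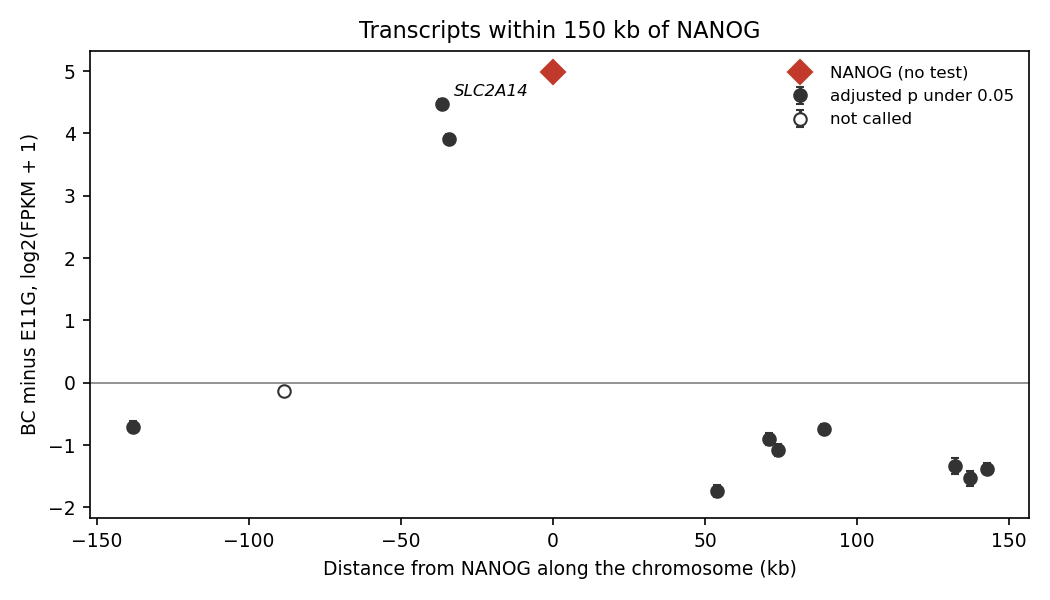
BC minus E11G on log2(FPKM + 1) for the 11 transcripts of at least 1 FPKM within 150 kb of NANOG, against their distance from it in kb, with standard errors of the fit; filled points passed the test and the diamond is NANOG, which was not tested. SLC2A14 at 4.47 and the transcript beside it stand with NANOG at 4.99, and all others lie below 0.

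Finally, the piRNA cluster lists, a readout independent of the choice of NANOG, were searched around the gene. piRNAs are small RNAs bound by PIWI proteins in germ cells, and a cluster is a stretch of genome from which many of them derive. The lists came from 8 libraries of periodate-oxidized small RNA, 2 each from BC, cultured E7 primordial germ cells (E7PGC), E11G and E14G, which were of other breeds than the RNA-seq samples (Leghorn for BC and the second gonad libraries, Cobb 500 for the first gonad libraries, and Arbor Acres for E7PGC). In 0 of 8 lists did a cluster overlap NANOG. The lists give no level outside called clusters, so a lack of piRNAs over the gene is not shown by this.

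Called clusters lay within 12 kb on both sides of NANOG in both E11G lists and in one E14G list. A site ending 8.84 kb before the gene was called in both E11G lists (12.03 and 19.7 normalized hits per kb), in the second E14G list (13.4) and in the first E7PGC list (8.96). A site starting 4.39 kb after the gene was called in both E11G lists (22.9 and 18.5 hits per kb) and in the second E14G list (14.9). Neither site was called in BC, where the nearest cluster lay 64.1 and 94.1 kb away, nor in the first E14G list (53.2 kb) or the second E7PGC list (93.6 kb). The weakest cluster called anywhere in a list had 1.86 and 1.93 hits per kb in BC and 7.37 and 8.67 in E11G. It had 9.35 and 9.17 in the first and second E14G lists, and 6.32 and 5.49 in the first and second E7PGC lists. These floors were thus near each other in the E14G lists with and without the sites. Sites ending 69.8 and 51.1 kb before the gene were each called in all 4 gonad lists and in no BC or E7PGC list. They had 14.3 to 17.9 and 18.8 to 24.1 hits per kb. A further site, chr1:76009151-76016655, was called in all 8 lists, from 4.80 hits per kb in the second BC list to 102 in the second E7PGC list. Within 1 Mb of NANOG 8 and 7 clusters were called in BC, 16 and 17 in E11G, 11 and 16 in E14G, and 7 and 5 in E7PGC. On the whole of chromosome 1 the lists held 185 and 179 clusters in BC, 120 and 172 in E11G, 133 and 163 in E14G, and 132 and 103 in E7PGC. The second gonad libraries differ from the first in breed and sequencer. Their lists were built on 7872371 and 8869224 reads left after filtering, against 1394576 and 1658418 for the first. The part of these differences was not tested.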

How the data were processed

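Expression was taken from a single FPKM table deposited by the authors, scaled by Cuffnorm over the 6 RNA-seq libraries with TopHat2 as the mapper, Cufflinks 2.2.1 as the assembler, and galGal5 with RefSeq and Ensembl models as the reference. For each of the 8 small RNA libraries the authors deposited a list of proTRAC clusters, in which normalized hits are a score per cluster and no value exists outside clusters. Symbols were assigned to RefSeq accessions with a RefSeq gene table (GRCg7b), for 6731 transcripts. The table holds no counts, so depth is unknown and no counting intervals were given.

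Stages were taken from the labels. Transcripts of at least 1 FPKM in at least 1 library were fitted on log2(FPKM + 1) with limma 3.58.1 (R 4.3.3, mean-variance trend, all 6 libraries, 3 stages), which was tested on simulated data, with Benjamini-Hochberg adjustment over all 22368 and a threshold of 0.05. No source gives the libraries of a stage as separate collections, so p-values measure the spread between these libraries only. Named were NANOG, list members, the 10 named transcripts nearest in level and the 3 nearest named genes on each side, of which one is not reported here. ASTL, ERNI, the transcripts ahead of NANOG in fall and the unnamed transcripts with both steps were added after values were seen. So were ENSGALT00000048576.1, CYP19A1 and the W chromosome check. NANOG and the lists were chosen with earlier results of these data known. Alternatives were a pseudocount of 0.1, no filter, TPM and median-ratio rescaling, other rank and likeness measures, and leaving out each library.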

Additional observations from a re-analysis of the deposited data

How the results depend on the processing

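The order of NANOG levels and ranks (BC, E11G, E14G) was the same under every setting run. BC minus E11G was 4.69 after rescaling to TPM and 4.65 after median-ratio rescaling, and BC minus E14G was 7.95 with a pseudocount of 0.1, 7.46 as TPM and 7.37 after median-ratio rescaling. E14G minus E11G was -2.92 with a pseudocount of 0.1. The mean top percent of NANOG in BC, E11G and E14G was 0.330, 9.002 and 38.8 among transcripts above 0 FPKM, and 1.34, 31.3 and 87.6 among RefSeq transcripts, where the number ranked differs by construction. Leaving out 1 library at a time gave between 1 and 132 transcripts higher in E14G than in E11G (340 with all) and between 1 and 187 lower (518 with all). Over the same runs the pluripotency genes higher in E14G were 0, those lower 0 to 3, the signalling genes lower 0, the streak genes lower 0 to 2 and the germ cell genes lower 0 to 1. With a pseudocount of 0.1 the pluripotency gene LIN28A was also called lower in E14G. Without a filter 1 signalling gene was lower in E14G, and after median-ratio rescaling 2 germ cell genes were. That rescaling reversed TBX3 in BC minus E11G (-0.056) and FKBP4 in BC minus E14G (-0.071). The cause was not tested. Clusters within 1 Mb were counted rather than measured as a distance, so they give no alternative distance. No paired analysis was possible because the RNA-seq titles number the libraries through all stages and share no number between stages, and results from the cluster lists came from no test. Unknown depth limits the values under 1 FPKM, and with 2 libraries per stage an SD is itself imprecise.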
